A study of Homo sapiens with 12 samples.

Results

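The Schlafen family of human genes is described here by its 4 members SLFN5, SLFN11, SLFN12 and SLFN13, taken by symbol from the 20771 genes of a raw RNA-seq count table and followed through all 12 of its libraries. The table comes from a study of ribonucleotide reductase, the enzyme that makes deoxyribonucleotides, in the Ewing sarcoma cell lines EW8 and TC71. Both lines, EW8-RRM1-KO and TC71-RRM1-KO, carry Cas9, a guide RNA against the endogenous RRM1 gene, a hygromycin resistance gene and a codon-optimised RRM1 transgene under a doxycycline-inducible promoter. Each was grown from single cells after sorting, so a difference between the lines is a difference between clones. The groups are EW8 at 0 h, EW8 at 48 h, TC71 at 0 h and TC71 at 48 h, with 3 libraries in each. The 0 h cells were kept in doxycycline and the 48 h cells had been without it for that time, so the absence of the drug and the loss of RRM1 cannot be told apart. Nothing in the labels says that the 3 libraries of a group came from separate cultures, and p-values therefore measure the spread between these libraries.

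Schlafen proteins share an N-terminal core that, in several members, cleaves transfer RNA. SLFN11 also acts at the replication fork, where it binds RPA-coated single-stranded DNA under replication stress and blocks replication, and its level is known for tracking the sensitivity of tumour cells to DNA-damaging drugs. In Ewing sarcoma, SLFN11 is a target of the fusion transcription factor EWS-FLI1. Schlafen genes as a group were first described in lymphocytes, and several are induced by interferon.

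The 4 members and their closest relatives lie in 1 cluster on chromosome 17. In GENCODE release 44 (GRCh38), SLFN5 spans chr17:35243071-35273655 on the + strand. The others are on the - strand, with SLFN11 at chr17:35350305-35373701, SLFN12 at chr17:35410922-35433283 and SLFN13 at chr17:35435096-35448837. The table holds 3 more genes with a Schlafen symbol, SLFN12L and SLFN14 at the far end of the same cluster and SLFNL1 on chromosome 1. By coding length the members fall into a long form, with 2673 coding bases in SLFN5, 2703 in SLFN11 and 2691 in SLFN13, and a short form, with 1734 in SLFN12 and 1836 in SLFN12L. The long form carries a C-terminal helicase-like part that the short form lacks. SLFN11 and SLFN13 are identical at 87.2% of their aligned coding bases, as are SLFN12 and SLFN12L (87.2%), while every other pair among SLFN5, SLFN11, SLFN12, SLFN13, SLFN12L and SLFN14 stands between 62.1% and 69.6%. Of the 100-base windows of the canonical SLFN11 transcript, 8.37% also occur in SLFN13, and 5.09% of the SLFN13 windows occur in SLFN11, so a part of the reads of these genes may be shared.

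The promoters of SLFN11 and SLFN12 are shown because these neighbours on 1 strand moved differently, and that of SLFN12L because it moved with SLFN12. Each runs from 250 bases before to 50 bases after the RefSeq start (GRCh38.p14, read on the - strand), at chr17:35373572-35373871 for SLFN11, chr17:35433125-35433424 for SLFN12 and chr17:35537629-35537928 for SLFN12L. Capitals mark the ETS core GGAA (TTCC on the other strand) in SLFN11, the AP-1 motif TGANTCA in SLFN12 and the interferon-response core in SLFN12L, which is GAAA, any 2 bases and GAAA again.
SLFN11: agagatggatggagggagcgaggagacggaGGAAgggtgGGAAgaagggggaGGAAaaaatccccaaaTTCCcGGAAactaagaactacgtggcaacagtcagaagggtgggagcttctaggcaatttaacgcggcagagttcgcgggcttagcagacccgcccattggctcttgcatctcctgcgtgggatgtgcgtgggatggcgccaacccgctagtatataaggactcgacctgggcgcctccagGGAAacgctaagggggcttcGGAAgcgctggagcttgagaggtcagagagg
SLFN12: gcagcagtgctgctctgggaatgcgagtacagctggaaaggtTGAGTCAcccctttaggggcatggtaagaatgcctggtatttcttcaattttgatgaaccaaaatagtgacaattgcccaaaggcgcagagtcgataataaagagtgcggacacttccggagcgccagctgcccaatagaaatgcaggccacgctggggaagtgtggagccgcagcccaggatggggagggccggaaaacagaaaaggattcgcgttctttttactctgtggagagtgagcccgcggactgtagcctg
SLFN12L: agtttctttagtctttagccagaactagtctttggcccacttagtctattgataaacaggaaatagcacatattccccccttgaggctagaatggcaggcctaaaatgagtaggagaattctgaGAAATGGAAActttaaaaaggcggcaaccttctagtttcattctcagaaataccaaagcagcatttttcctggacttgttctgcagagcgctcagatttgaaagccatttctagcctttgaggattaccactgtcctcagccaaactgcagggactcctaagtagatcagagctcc
Both strands were searched in 35116 promoters of this length. The SLFN11 window holds 7 GGAA cores, 5 of them between -220 and -174 from the start, and 8.29% of all promoters hold 7 or more, although 95.5% hold at least 1. The SLFN12 window holds TGAGTCA at -208 to -202, and 7.71% of all promoters hold TGANTCA. It also holds 5 GGAA cores, which are not capitalised above. The SLFN12L window holds GAAATGGAAA at -126 to -117, which contains 1 of its 4 GGAA cores (the other 3 are not capitalised), and 3.57% of all promoters hold that core. The AP-1 motif has no match in the SLFN11 and SLFN12L windows, and the interferon-response core has none in those of SLFN11 and SLFN12. A match is a stretch of letters and was not tested for binding. SLFN5 and SLFN13 had no entry in the promoter table.

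Total counts per library ran from 18468485 to 35698991, and 16515 genes passed the filter on low counts and were tested. A gene was called when its adjusted p (edgeR's quasi-likelihood test, Benjamini-Hochberg over all genes tested) was below 0.05 and its fold change above 2. Levels within a gene are in CPM, the share of a library's counts on a fixed scale after TMM factors. Levels between genes are in RPKM, the same value per kilobase of the union of a gene's exons. RRM1, the targeted gene, had 166 to 317 counts in EW8 at 0 h and 1201 to 1514 at 48 h, and 316 to 422 and 674 to 778 in TC71. This row does not check the labels, since a gene cut by Cas9 can still be transcribed and the transgene is codon optimised. All 8 Ewing sarcoma markers were present, from 128 counts upwards in every library. Of 8 immune cell markers 4 were in the table (PTPRC, CD4, CD8A and CD14), none above 13 counts in a library, and their summed level stayed between 0.433 and 0.881 CPM in all groups. Of 3 endothelial markers only CDH5 was in the table, with at most 6 counts.

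SLFN5 rose most of the 4 members in EW8, SLFN12 rose by more than 2-fold, and SLFN11 and SLFN13 rose by less. In TC71, SLFN5 and SLFN12 rose by less than 2-fold, SLFN11 was slightly lower and SLFN13 did not pass the test. The 2 members called in EW8 of 4 compare with 17.2% of all genes tested called in either direction and 13.9% called higher. In TC71, 0 of 4 were called (3 at an adjusted p below 0.05 alone), against 4.12% of all genes tested. At an adjusted p below 0.05 alone, 4 of 4 passed in EW8, where 68.6% of all genes tested did, and 3 of 4 in TC71, where 42.1% did. With so many genes passing, these counts are not read as a property of the family, and the sizes of the changes are given for each member. The libraries of the 2 times did not overlap for 4 of 4 members in EW8 (71.1% of all genes tested) and 3 of 4 in TC71 (49.6%).

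**Figure D1:**
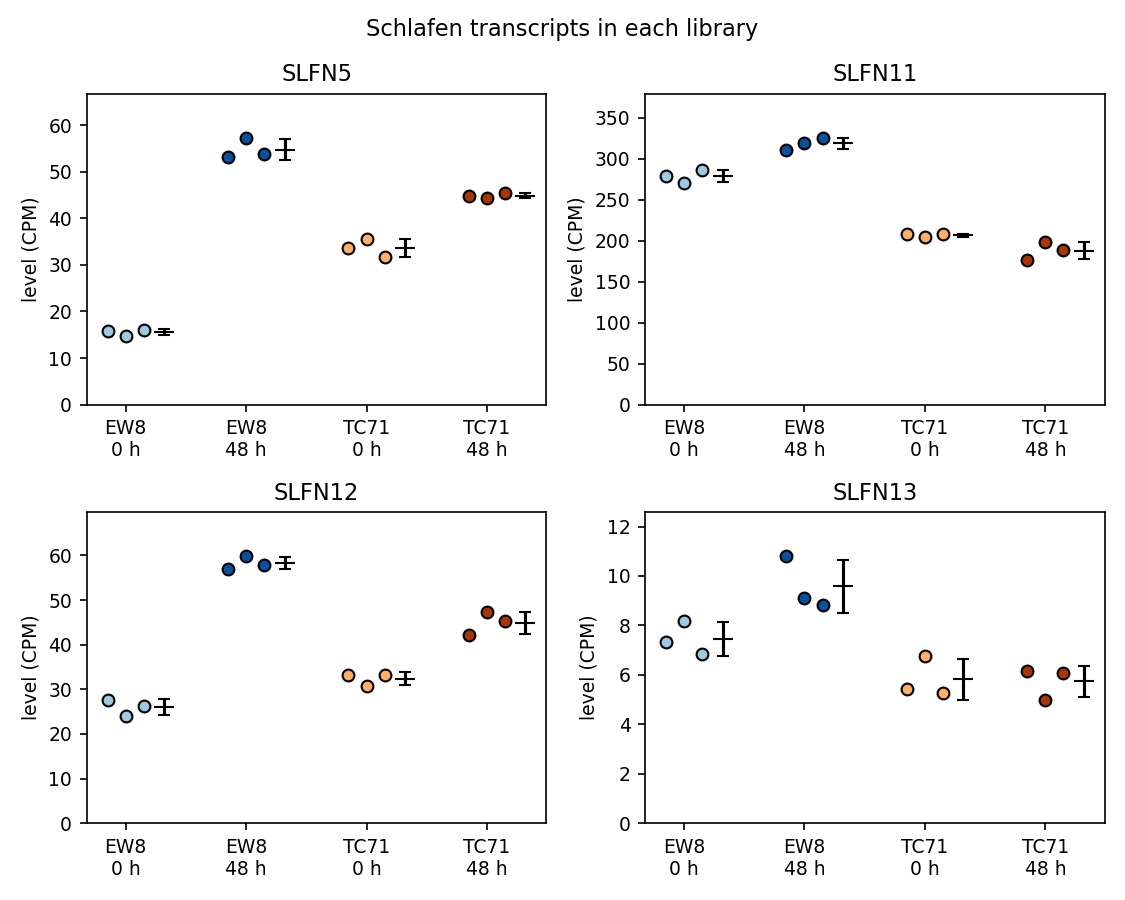
Level of each Schlafen member in every library, in CPM, with 1 panel per gene and the y axis starting at 0. Points are libraries and the bar beside them is the mean ± SD of 3 libraries. SLFN5 and SLFN12 were higher in all 48 h libraries than in any 0 h library of their line, and SLFN13 overlapped between the TC71 groups.

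SLFN5 encodes a nuclear member of the family that represses transcription, including that of interferon-stimulated genes. Its level was 15.9, 14.8 and 16.1 CPM in the EW8 libraries at 0 h and 53.1, 57.2 and 53.7 CPM at 48 h. In TC71 it was 33.6, 35.5 and 31.7 CPM at 0 h and 44.8, 44.3 and 45.5 CPM at 48 h. All 48 h libraries stood above the 0 h libraries of their line, and the EW8 libraries were at once the lowest of the 12 (at 0 h) and the highest (at 48 h). The log2 fold change was 1.80 in EW8 (SE 0.062, adjusted p = 3.10e-23), or 3.49-fold with a 95% interval of 3.20 to 3.81. In TC71 it was 0.42 (SE 0.056, adjusted p = 1.82e-07), or 1.34-fold (1.24 to 1.45). The difference between the responses was 1.38 on the log2 scale (SE 0.084, adjusted p = 2.92e-15), past the fold threshold as well. SLFN5 was the 1 member of 4 called in this comparison, in which 8.26% of all genes tested were called and 48.1% passed the adjusted p alone. Its log2 fold change lay above those of 94.4% of genes tested in EW8 and 85.9% in TC71. The same shares were 88.2% and 87.6% for SLFN12, 68.0% and 49.2% for SLFN13, and 59.2% and 30.9% for SLFN11.

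SLFN12 encodes the short-form member that, when bound by the phosphodiesterase PDE3A in the presence of certain small molecules, becomes an active RNase and kills cells. It stood at 27.6, 24.1 and 26.2 CPM in EW8 at 0 h and at 57.0, 59.8 and 58.0 CPM at 48 h. In TC71 it stood at 33.3, 30.7 and 33.1 CPM at 0 h and at 42.2, 47.2 and 45.2 CPM at 48 h. The groups of a line did not overlap, and again EW8 held both the lowest and the highest libraries. The log2 fold change was 1.16 in EW8 (SE 0.060, adjusted p = 2.87e-18), or 2.24-fold (2.06 to 2.43). It was 0.47 in TC71 (SE 0.058, adjusted p = 4.86e-08), or 1.38-fold (1.27 to 1.502). The response of EW8 exceeded that of TC71 by 0.69 (log2, SE 0.084, adjusted p = 2.05e-08), which is below the fold threshold.

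SLFN11, the member that acts at stressed forks, was by far the most abundant. Its level was 279.3, 270.6 and 285.8 CPM in EW8 at 0 h and 311, 320 and 325 CPM at 48 h. In TC71 it was 208, 204 and 208 CPM at 0 h and 177, 198 and 189 CPM at 48 h. The EW8 libraries at 48 h were all higher than those at 0 h, the TC71 libraries at 48 h were all lower, and every EW8 library exceeded every TC71 library. The log2 fold change was 0.19 in EW8 (SE 0.040, adjusted p = 7.22e-05), or 1.14-fold (1.08 to 1.21), and -0.14 in TC71 (SE 0.041, adjusted p = 0.00683), or 0.910-fold (0.859 to 0.963). The fall in TC71 missed the threshold without TC71 48 h replicate 1 (-0.095, adjusted p = 0.0777) and with total counts in place of TMM factors (-0.086, adjusted p = 0.0656). The 2 responses differed by 0.33 on the log2 scale (SE 0.057, adjusted p = 1.15e-05). Over all genes tested, the median absolute log2 fold change was 0.44 in EW8, 0.20 in TC71 and 0.35 for the difference. The values of SLFN11 lie below these medians in size.

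SLFN13, a long-form member that cleaves transfer and ribosomal RNA, was the scarcest of the 4, with 127 to 225 counts per library. It stood at 7.31, 8.19 and 6.86 CPM in EW8 at 0 h and at 10.8, 9.12 and 8.81 CPM at 48 h. In TC71 it stood at 5.44, 6.77 and 5.25 CPM at 0 h and at 6.14, 4.998 and 6.06 CPM at 48 h. The EW8 groups did not overlap and the TC71 groups did. The log2 fold change in EW8 was 0.37 (SE 0.11, adjusted p = 0.00407), or 1.30-fold (1.11 to 1.52), and without EW8 0 h replicate 3 it was 0.28 (adjusted p = 0.0679). In TC71 it was -0.0071 (SE 0.12, adjusted p = 0.970), with a 95% interval of -0.25 to 0.24 on the log2 scale. The difference between the lines was 0.38 (SE 0.17) and missed the threshold (adjusted p = 0.0565). It passed without EW8 48 h replicate 3, TC71 0 h replicate 3, TC71 48 h replicate 1 or TC71 48 h replicate 3 (adjusted p from 0.0382 to 0.0487) and with total counts in place of TMM factors (adjusted p = 0.0267).

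**Figure D2:**
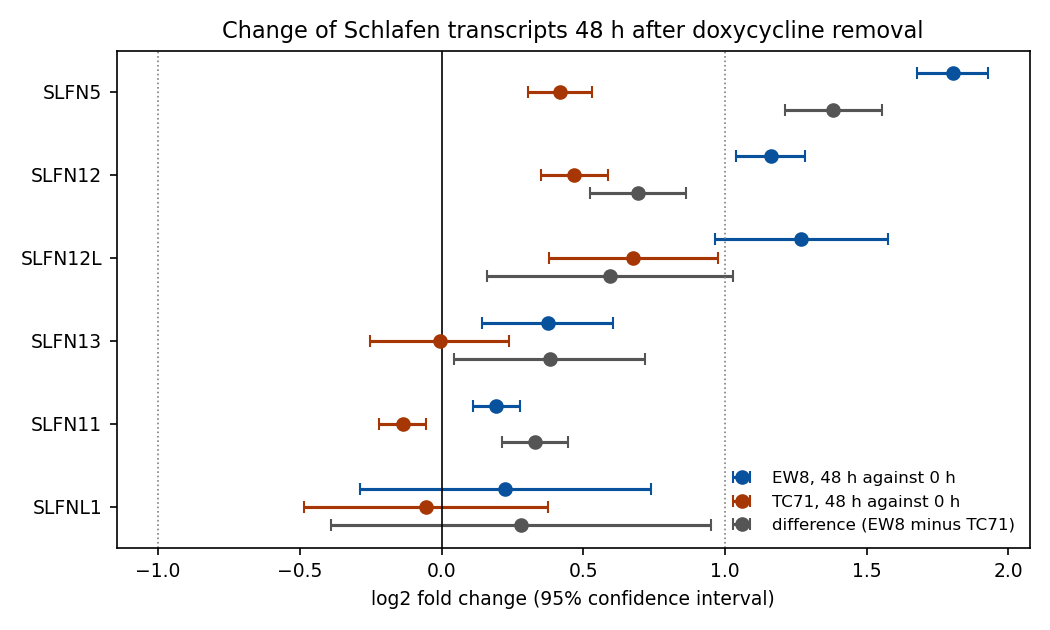
Log2 fold change at 48 h against 0 h in each line and the difference between the lines, with 95% confidence intervals; dotted lines mark a 2-fold change. SLFN5, SLFN12 and SLFN12L lie past the dotted line in EW8 and short of it in TC71, and SLFN11 lies on opposite sides of 0 in the lines.

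The table holds SLFN12L, SLFN14 and SLFNL1 beside the members. SLFN12L had 2.80, 2.46 and 2.26 CPM in EW8 at 0 h and 6.01, 6.47 and 5.53 CPM at 48 h. It had 3.13, 2.31 and 2.85 CPM in TC71 at 0 h and 4.77, 3.62 and 4.95 CPM at 48 h. The groups of a line did not overlap. Its log2 fold change was 1.27 in EW8 (SE 0.15, adjusted p = 3.87e-09) and 0.68 in TC71 (SE 0.15, adjusted p = 3.25e-04), so it was called in EW8 as SLFN12 was. With the fold threshold inside the test SLFN12L lost that call (adjusted p = 0.114) and SLFN12 kept its own (adjusted p = 0.0158). The difference of 0.59 (SE 0.21, adjusted p = 0.0210) missed the threshold without EW8 0 h replicate 3, EW8 48 h replicate 2, TC71 0 h replicate 1 or TC71 48 h replicate 2 (adjusted p from 0.0541 to 0.100) and with DESeq2 (adjusted p = 0.0549). Of its exon bases, 560 also belong to the processed pseudogene AC015911.8 on the same strand, and 8.03% of the 100-base windows of its canonical transcript occur in another gene.

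SLFN14, known from platelets and red cell precursors, had 0, 0 and 2 counts in EW8 at 0 h, 6, 3 and 4 counts at 48 h, 0, 0 and 1 counts in TC71 at 0 h and 0, 2 and 3 counts at 48 h. It did not pass the filter on low counts and was not tested. SLFNL1, a gene with a Schlafen-like domain outside the cluster, had 2.99 to 4.03 CPM in EW8 at 0 h and 3.01 to 4.85 CPM at 48 h, and 4.22 to 5.81 and 3.53 to 6.45 CPM in TC71. These groups overlapped in both lines. Its log2 fold change was 0.22 in EW8 (adjusted p = 0.425, interval -0.29 to 0.74) and -0.055 in TC71 (adjusted p = 0.853, interval -0.49 to 0.38).

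The order of the lines changed for some members between 0 h and 48 h. At 0 h, SLFN5 was lower in EW8 than in TC71 (log2 ratio -1.098, SE 0.064, adjusted p = 8.33e-17), and SLFN12 had a log2 ratio of -0.32 (adjusted p = 3.77e-05). At 48 h both were higher in EW8, by 0.29 for SLFN5 (SE 0.054, adjusted p = 1.69e-05) and by 0.38 for SLFN12 (SE 0.056, adjusted p = 2.91e-07). The libraries of the lines did not overlap for either gene at either time. SLFN11 was higher in EW8 at both times, by 0.43 (SE 0.041, adjusted p = 1.97e-11) and 0.76 (SE 0.041, adjusted p = 4.47e-18). SLFN13 was higher by 0.35 at 0 h (adjusted p = 0.0103) and 0.73 at 48 h (adjusted p = 7.41e-07). The 0 h value of SLFN13 missed the threshold without TC71 0 h replicate 1 (0.31, adjusted p = 0.0529), without TC71 0 h replicate 3 (0.29, adjusted p = 0.0578), with total counts (0.22, adjusted p = 0.118) and with upper-quartile factors (0.27, adjusted p = 0.0513). SLFN12L had a log2 ratio of -0.17 at 0 h (adjusted p = 0.388) and 0.43 at 48 h (adjusted p = 0.00447), and without TC71 48 h replicate 2 the latter was 0.29 (adjusted p = 0.0531). SLFNL1 was at -0.60 (adjusted p = 0.0273) and -0.32 (adjusted p = 0.208).

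At 0 h, 1 of the 4 members was called between the lines, SLFN5, against 16.7% of all genes tested. At 48 h, 0 of 4 were called (4 at an adjusted p below 0.05 alone in the same edgeR fit), against 21.5%. The adjusted p alone was passed by 4 of 4 at both times, beside 65.7% and 72.7% of all genes. The libraries of the lines did not overlap for 4 of 4 at either time, and the same held for 68.3% and 74.6% of all genes.

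Per kilobase of exon, the order of the members was SLFN11, SLFN12, SLFN5 and SLFN13 in all 4 groups, and the ranges of neighbours in that order overlapped in no group. In bulk RNA, a change in the number of expressing cells and a change in RNA per cell cannot be told apart. SLFN11 stood at 46.6 ± 1.28 RPKM (SD, n = 3) in EW8 at 0 h, 53.3 ± 1.19 at 48 h, 34.5 ± 0.344 in TC71 at 0 h and 31.4 ± 1.75 at 48 h. SLFN12 stood at 7.06 ± 0.489, 15.9 ± 0.375, 8.81 ± 0.397 and 12.2 ± 0.691 RPKM in the same order of groups. SLFN5 stood at 1.46 ± 0.0627, 5.12 ± 0.209, 3.15 ± 0.178 and 4.21 ± 0.0538 RPKM, and SLFN13 at 0.799 ± 0.0724, 1.03 ± 0.114, 0.624 ± 0.0885 and 0.615 ± 0.0685 RPKM. The distance between the top members narrowed. The ratio of SLFN11 to SLFN12 in a library ranged from 6.21 to 6.91 in EW8 at 0 h and from 3.29 to 3.45 at 48 h, and from 3.83 to 4.08 and 2.56 to 2.58 in TC71. The ratio of SLFN5 to SLFN13 ranged from 1.58 to 2.05 in EW8 at 0 h and from 4.30 to 5.48 at 48 h, and from 4.58 to 5.41 and 6.37 to 7.75 in TC71. Taking the longest annotated transcript in place of the exon union raised the mean of SLFN12 over the groups from 11.0 to 15.9 RPKM and that of SLFN11 from 41.4 to 48.2.

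**Figure D3:**
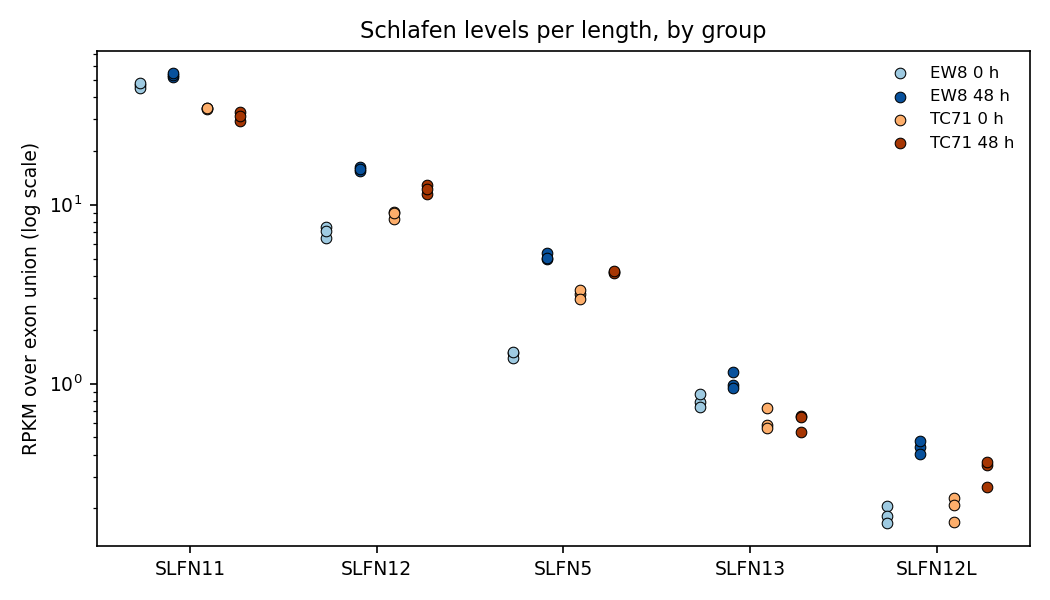
RPKM of SLFN11, SLFN12, SLFN5, SLFN13 and SLFN12L in every library on a log scale, coloured by group. SLFN11 lies between 29.6 and 54.4 RPKM and SLFN13 between 0.536 and 1.16, and the step from 0 h to 48 h is largest for SLFN5 in EW8.

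Over the centred log2 group means, SLFN11 and SLFN13 had the most similar pattern of the 6 pairs of members (root mean square distance 0.076), followed by SLFN5 and SLFN12 (0.315), and SLFN5 and SLFN11 the least similar (0.785). The part that reads shared by SLFN11 and SLFN13 have in their distance was not tested. This distance also counts the size of a change, so genes that change little lie close together. The same measure over 4 groups was taken between each member and 13508 genes with at least 1 CPM on average. The genes nearest to SLFN5 were VIPR1 (distance 0.019), AL360181.2 (0.062) and FAM43A (0.066). Nearest to SLFN11 were COG7 (0.0069), EIF3CL (0.014) and PTCD2 (0.015), nearest to SLFN12 were ADPRM (0.016), GTF2B (0.036) and FOXD3 (0.048), and nearest to SLFN13 were MKLN1 (0.010), PSPH (0.018) and TSSC4 (0.024). These are descriptions over 4 points and carry no test.

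Along the cluster, members with larger and smaller changes in EW8 alternated, in the order SLFN5, SLFN11, SLFN12, SLFN13 and SLFN12L. Within 500 kb of the cluster the table holds 23 other genes, of which 18 were tested. In EW8, 8 of the 18 were called higher, where 13.9% of all genes tested were, and 0 lower (5 were lower at an adjusted p below 0.05 alone), with a median log2 fold change of 0.80 beside 0.03 over all genes tested. In TC71, where 4.12% of all genes tested were called, 2 were called higher and 0 lower (4 lower at an adjusted p below 0.05 alone), with a median of 0.27 beside -0.0013. In the stretch between SLFN11 and SLFN12, AC060766.6 (1.32 in EW8, 0.52 in TC71), AC060766.5 (1.20 and 0.54), AC060766.7 (1.09 and 0.35) and AC060766.1 (1.10 and 0.52) were called in EW8, which are noncoding genes on the same strand. AC060766.7 shares 811 exon bases with AC060766.1 and AC060766.5 together, so these 3 are not separate measurements. SLFN11, whose start lies 29.3 kb from that of AC060766.6, rose by 0.19 and SLFN12, 59.6 kb from the start of SLFN11, by 1.16.

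Inside the span of SLFN12L, AC015911.8 rose by 1.61 in EW8 and had 0.82 in TC71, and all of its 560 exon bases lie in SLFN12L exons. AC015911.7 (1.03 and 1.18) was called in both lines and E2F3P1 (0.48 and 1.146) in TC71, and both are processed pseudogenes on the other strand at below 1 CPM in every group mean. On the far side of SLFN5, RFFL, a ubiquitin ligase gene, rose by 1.57 in EW8 (SE 0.11, adjusted p = 4.04e-15) and 0.79 in TC71 (SE 0.12, adjusted p = 2.29e-06). There CCT6B had 1.01 (SE 0.37, adjusted p = 0.0149) in EW8 but -0.74 (SE 0.24, adjusted p = 0.0131) in TC71. CCT6B is a low-count gene, at 0.332 and 0.645 CPM in EW8 at 0 h and 48 h and 1.33 and 0.8 CPM in TC71.

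**Figure D4:**
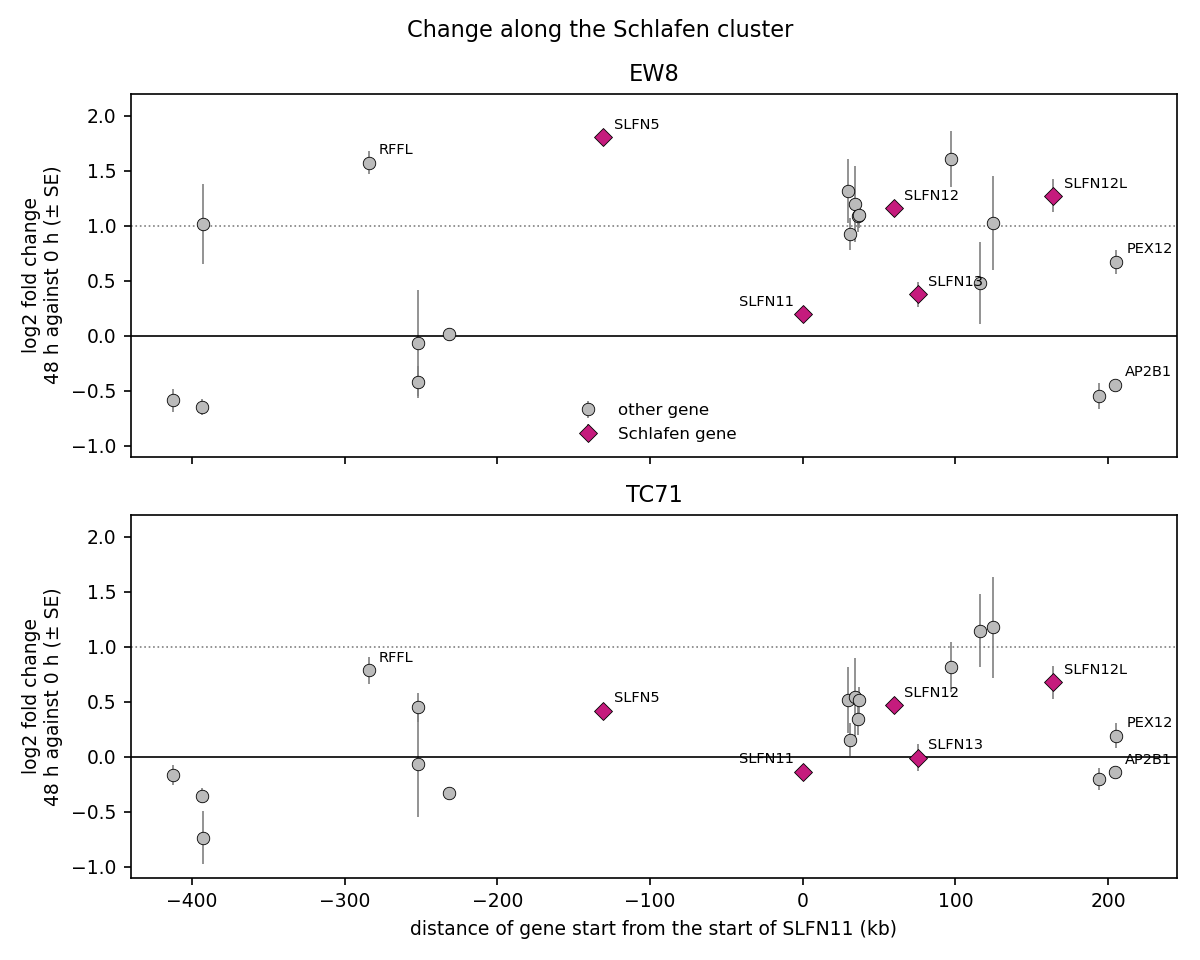
Log2 fold change (± SE) of every tested gene within 500 kb of the Schlafen cluster against the distance of its start from the start of SLFN11 in kb, EW8 above and TC71 below. SLFN11 (0.19) and SLFN13 (0.37) lie low between SLFN5 (1.80), SLFN12 (1.16) and SLFN12L (1.27) in EW8, and the dotted line marks a 2-fold change.

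Genes that work with the members were taken from short lists. Their counts stand against 17.2% of all genes tested called in EW8 and 4.12% in TC71, and 68.6% and 42.1% at an adjusted p below 0.05 alone. Of 16 genes of the SLFN11 pathway at the replication fork, 0 were called in EW8 by edgeR, with 5 higher and 9 lower at an adjusted p below 0.05 and a median of -0.20. RPA1, the large subunit of the complex that SLFN11 binds, had -0.52 in EW8 (adjusted p = 4.55e-13) but 0.29 with adjusted p = 6.10e-07 in TC71. The smaller subunits moved in opposite directions in EW8, with 0.18 for RPA2 (adjusted p = 2.08e-04) and -0.73 for RPA3 (adjusted p = 3.70e-11), and had 0.46 (adjusted p = 1.26e-11) and 0.14 (adjusted p = 0.0826) in TC71. In TC71, 1 was called higher, CDT1, the licensing factor degraded in the presence of SLFN11 (1.02, adjusted p = 5.60e-09), with a median of 0.086, and it was not called (0 of 16) without TC71 0 h replicate 3, TC71 48 h replicate 1 or TC71 48 h replicate 3. ATR and ATM, the checkpoint kinases whose translation is sensitive to SLFN11, changed by 0.14 and 0.47 in EW8 (adjusted p = 0.00512 and 2.64e-09) and by -0.094 and 0.045 in TC71 (adjusted p = 0.0986 and 0.537). The catalytic subunits of protein phosphatase 1, which act on SLFN11, passed the adjusted p lower in EW8 for 3 of 3, with 0 called. PPP1CC fell by 0.91 on the log2 scale (log2 fold change -0.91, adjusted p = 1.45e-19), PPP1CB had -0.52 (adjusted p = 2.27e-12) and PPP1CA -0.23 (adjusted p = 4.44e-05). In TC71 they had -0.50 (adjusted p = 1.27e-11), -0.24 (adjusted p = 4.11e-05) and 0.10 (adjusted p = 0.0700).

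Of the SLFN12 partners, PDE3A averaged 1.02 CPM in EW8 at 0 h and 2.004 CPM at 48 h (log2 fold change 0.95, SE 0.23, adjusted p = 3.96e-04), and 0.120 and 0.046 CPM in TC71 (-1.33, adjusted p = 0.156). The related phosphodiesterase gene PDE3B was not called (-0.092, adjusted p = 0.104, in EW8 and -0.12, adjusted p = 0.0476, in TC71). Of 22 genes of tRNA cleavage and ribosome stalling, 0 were called higher and 1 lower in EW8, with 4 higher and 14 lower at an adjusted p below 0.05 and a median of -0.22. The 1 called was ANG, the RNase angiogenin (-1.31, SE 0.50, adjusted p = 0.0203), at 0.444 and 0.169 CPM, and it was not called without EW8 0 h replicate 1 or with DESeq2. In TC71, 0 were called (10 passed the adjusted p alone, 3 higher and 7 lower) with a median of -0.082.

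Of 27 interferon targets tested, 13 were called higher, against 13.9% of all genes tested, and 0 lower in EW8 (2 lower at an adjusted p below 0.05 alone), with a median log2 fold change of 0.96. OASL rose by 5.37 (adjusted p = 4.05e-24), RSAD2 by 5.11 (adjusted p = 1.31e-09), from 0.020 to 1.11 CPM, and IFIT2 by 4.24 (adjusted p = 4.33e-31). In TC71, 4 were called higher, against 4.12% of all genes called in either direction, and 0 lower (1 lower at an adjusted p below 0.05 alone), with a median of 0.42, and without TC71 0 h replicate 1 or with DESeq2 2 were called. The 4 were RSAD2 (1.38, adjusted p = 0.0167), OAS1 (1.35, adjusted p = 0.0438), IFIT3 (1.19, adjusted p = 3.36e-14) and IFIT2 (1.15, adjusted p = 6.89e-11). In TC71, RSAD2 averaged 0.174 CPM at 0 h and 0.443 CPM at 48 h, and OAS1 0.099 and 0.261 CPM. With the fold threshold inside the test, 0 targets were called in TC71. Among 12 interferon regulators tested, IRF7 (2.05, adjusted p = 1.08e-10) and IRF1 (1.31, adjusted p = 5.64e-12) were called higher in EW8, 0 were called lower (7 higher and 3 lower at an adjusted p below 0.05 alone), and the median was 0.26. The 3 lower were the interferon receptor genes IFNAR1 (-0.27) and IFNAR2 (-0.45) and the kinase gene JAK1 (-0.22). In TC71, 0 were called (7 higher and 1 lower at an adjusted p below 0.05 alone) and the median was 0.14.

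SLFN5 has been linked to ZEB1 and MMP14. ZEB1, a repressor active in epithelial-mesenchymal transition, rose by 1.20 (adjusted p = 1.40e-05) in EW8 and had -0.39 in TC71 (adjusted p = 0.280). MMP14, a membrane metalloprotease gene, rose by 0.22 (adjusted p = 0.00849) and 0.48 (adjusted p = 2.71e-08).

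Of 13 ETS factors and Ewing sarcoma identity genes tested, 1 was called in EW8, ELF1 (1.19, SE 0.046, adjusted p = 1.18e-21), with 9 higher and 4 lower at an adjusted p below 0.05 and a median of 0.15 (2 were called without EW8 48 h replicate 2 and with total counts), and 0 in TC71 (7 higher and 3 lower at an adjusted p below 0.05 alone), with a median of 0.13. FLI1, whose 3' part belongs to the fusion that activates SLFN11, was lower in both, with -0.72 for EW8 (adjusted p = 6.06e-16) and -0.41 for TC71 (adjusted p = 2.76e-09). The other 3 that were lower in EW8 were CD99 (-0.45, adjusted p = 1.07e-12), PRKCB (-0.33, adjusted p = 2.71e-10) and EWSR1 (-0.16, adjusted p = 1.09e-04). Of 8 markers of Ewing sarcoma, all of them also in this list, 4 were higher and 4 lower in EW8 at an adjusted p below 0.05, with 0 called and a median of -0.024. Those higher had 0.98 for NR0B1 (adjusted p = 2.35e-16), 0.60 for LIPI (adjusted p = 1.36e-10), 0.58 for NKX2-2 (adjusted p = 9.77e-06) and 0.12 for STEAP1 (adjusted p = 0.0208). In TC71 these 4 had 0.19 (adjusted p = 0.00484), 0.30 (adjusted p = 1.01e-04), 0.47 (adjusted p = 9.38e-05) and 0.13 (adjusted p = 0.0151). Of 13 chromatin regulators of SLFN11 tested, the histone H3 lysine 27 demethylase genes KDM6B (2.68, SE 0.065, adjusted p = 3.29e-26) and KDM6A (1.08, SE 0.053, adjusted p = 6.27e-19) were called higher in EW8 and 0 lower (8 higher and 4 lower at an adjusted p below 0.05 alone), with a median of 0.14. The 4 lower were the histone deacetylase genes HDAC1 (-0.43), HDAC2 (-0.52) and HDAC3 (-0.26) and the methyltransferase gene EZH1 (-0.59). EZH2, the methyltransferase that acts on the same residue, changed by 0.26 (adjusted p = 4.79e-06). In TC71, 0 of these 13 were called (5 higher and 2 lower at an adjusted p below 0.05 alone), with a median of 0.090.

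Of 4 epithelial markers 3 were tested, and their summed level ran from 6.92 to 9.39 CPM in EW8 at 0 h and from 21.4 to 23.2 CPM at 48 h, and from 71.1 to 73.1 and 98.4 to 111.5 CPM in TC71. KRT8 (2.005, adjusted p = 8.08e-11) and KRT18 (1.33, adjusted p = 2.18e-15) rose in EW8 alongside SLFN5 and SLFN12, while EPCAM had 1.14 (adjusted p = 0.0676). In TC71, KRT8 had 0.58 (adjusted p = 4.93e-05), KRT18 0.54 (adjusted p = 1.02e-09) and EPCAM 0.67 (adjusted p = 0.0353). Their part in the Schlafen results was not tested.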

How the data were processed

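Polyadenylated RNA of the knockout clones was sequenced in 12 libraries made with a stranded kit. The authors checked reads with FastQC, mapped them to hg38 with STAR and deposited raw counts per gene. The counting tool, its strand setting and its annotation are not given in the sources used here. Gene identifiers were matched to GENCODE release 44 (19943 of 20771), which gave positions and lengths. The test was edgeR's (version 4.0.16, R 4.3.3, limma 3.58.1), with filterByExpr (minimum count 10, minimum total 15), TMM factors and a robust quasi-likelihood fit of 4 group means over all 12 libraries, with Benjamini-Hochberg adjustment over 16515 genes. DESeq2 (version 1.42.0 here), a package that the authors used too, was an alternative, beside other scalings, filters and fits and leaving out each library. CPM and RPKM were computed here from the deposited counts. Distances between patterns used a prior count of 2. The procedure was tested on simulated counts. The members and the lists (replication fork, SLFN12 partners, phosphatases, tRNA cleavage, interferon regulators and targets, ETS factors, chromatin regulators, SLFN5-linked genes and cell type markers) were chosen with earlier results of these data known. Named are all members, relatives and called neighbours, every gene of lists with 5 or fewer, the 3 called genes with the largest change in longer lists, background genes and the 3 nearest genes in pattern, with a few of these left out and not reported here. Replicates of a group differed by more than counting noise (chi-square per gene 1.98 to 9.16), and the biological coefficient of variation was 4.17%. Plots used Python 3.11.15 and matplotlib 3.10.9.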

Additional observations from a re-analysis of the deposited data

Results flagged for a closer look

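The response to doxycycline removal differed between the lines in the test of the difference itself for 3 of 4 members at an adjusted p below 0.05, which 48.1% of all genes tested passed, and 1 of 4 (SLFN5) passed the fold threshold too. EW8 exceeded TC71 by 1.38 (log2) for SLFN5, by 0.69 for SLFN12 and by 0.33 for SLFN11. The median absolute value of this difference over all genes tested was 0.35, so that of SLFN11 was not large beside other genes. For SLFN11 the 3 EW8 libraries at 48 h were all above those at 0 h and the 3 TC71 libraries at 48 h all below, and the fall in TC71 is the least firm of these values, since it missed the threshold without TC71 48 h replicate 1 (adjusted p = 0.0777). Groups of 3 libraries were not searched for outlying libraries.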

How the results depend on the processing

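SLFN5 and SLFN12 in EW8 stayed past both thresholds under all 17 alternatives, with log2 fold changes of 1.74 to 1.93 and 1.08 to 1.29. A fold threshold inside the test left 2 members in EW8, 0 in TC71, 1 in the difference between the lines (SLFN5) and 0 between the lines at 0 h, where SLFN5 was lost (adjusted p = 0.174), and at 48 h. No fold threshold called 4 members in EW8, 3 in TC71, 3 in the difference and 4 at each time between the lines. In TC71 the sign of SLFN13 turned with at least 10 counts in every library (0.0013), with total counts (0.043), without TC71 0 h replicate 2 (0.099) and without TC71 48 h replicate 2 (0.076), never past the threshold, and leaving out single libraries gave -0.072 to 0.099. Leaving out single libraries gave 2 members past both thresholds in EW8 throughout, 0 in TC71, 1 in the difference, 1 at 0 h and 0 at 48 h, and 3 to 4, 2 to 3, 3 to 4, 3 to 4 and 4 at the adjusted p alone. Levels per length moved little without 1 library (SLFN11 41.2 to 41.7, SLFN12 10.9 to 11.1, SLFN5 3.46 to 3.51, SLFN13 0.750 to 0.776 RPKM) and more with the longest transcript (48.2 for SLFN11, 15.9 for SLFN12). Total counts moved the median of all genes in EW8 from 0.03 to 0.16, against which SLFN11 stood at 0.32 and SLFN13 at 0.50. Over all genes, called counts of 2848 in EW8 and 680 in TC71 became 1488 and 135 with the fold threshold inside the test, 1510 and 233 with at least 10 counts in every library and 11329 and 6955 without a fold threshold. In the comparison of responses 1364 became 232, 732 and 7940, and between the lines 2751 became 1578, 1368 and 10854 at 0 h and 3553 became 2159, 1966 and 12014 at 48 h. With at least 10 counts in every library, 7 interferon targets were called in EW8 in place of 13. The replicate number does not pair the libraries, since same-numbered libraries of a line deviated with correlations of -0.14 to -0.015. With it as a block, 2, 0 and 1 members were called in EW8, TC71 and the difference, and no member's call changed. No such fit was made between the lines, where a number within a line is shared by no pair. SLFN14 is limited by its low counts, at 6 or fewer in a library.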

Other observations

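TTA is the leucine codon read by the transfer RNA that active SLFN11 and SLFN12 are known to cleave. Of the leucine codons in canonical coding transcripts, TTA makes up 13.0% in SLFN5 (13 of 100), 14.7% in SLFN11 (14 of 95), 18.2% in SLFN12 (12 of 66) and 12.4% in SLFN13 (11 of 89), beside a median of 4.88% over 19695 transcripts. Among these transcripts the share stands at percentile 77.7 for SLFN5, 81.7 for SLFN11, 88.7 for SLFN12 and 75.7 for SLFN13. It makes up 17.2% in SLFN12L, 9.47% in SLFN14 and 0 of 50 in SLFNL1. The checkpoint genes ATM (23.4%) and ATR (20.7%) stand higher, and CHEK1 (12.2%) stands beside SLFN13. These shares describe the sequence and say nothing of translation in these cells.

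By Pearson correlation of log2 CPM over the 12 libraries, in place of distance over the group means, the genes most like SLFN5 were CCNG2 (r = 0.993), PIBF1 (0.992) and CLDN1 (0.990). For SLFN12 they were ARID5B (0.995), TRPC1 (0.994) and YPEL5 (0.994), for SLFN11 SRSF3 (0.996), MRPS30 (0.994) and WASHC4 (0.994), and for SLFN13 TSSC4 (0.977), SP2 (0.977) and LONP1 (0.976). Only TSSC4 is among the 3 nearest by both measures, and 0 of 3 are shared for SLFN5, SLFN11 and SLFN12. The points share the 4 groups, and a correlation takes no account of the size of a change.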
